A study of Mus musculus with 24 samples.

Results

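Activator protein 1 (AP-1) is a family of transcription factors that bind DNA as pairs, and 8 of its genes were followed here in mouse liver: Jun, Junb, Jund, Fos, Fosb, Fosl1, Fosl2 and Atf3. They were chosen by symbol, and the brightest probe set annotated to a symbol stood for the gene. Of the 8 genes, 7 had a probe set of their own among 18820 measured gene symbols, and each of the 7 had exactly 1. Fosl1, which encodes the Fos-related protein Fra-1, was covered by 2 probe sets that are also annotated to Ccdc85b, so no value is given for it.

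The study asked how loss of Jnk1, the kinase gene with the symbol Mapk8, changes the liver's response to bile duct ligation, an operation that stops bile flow and injures the liver. The 24 arrays each held liver RNA of a sample from male C57/BL6 mice, in 8 groups of 3. At 48 h after surgery the groups were ligated JNK1-/- mice, ligated JNK1Δhepa mice, ligated control (JNK1f/f) mice and sham-operated control mice, all 8 weeks old, and the same 4 groups were taken at 28 d, at 12 weeks of age. JNK1-/- mice lack the gene in every cell and were purchased. JNK1Δhepa mice were bred from the JNK1f/f line with a Cre transgene under an albumin promoter, which aims the deletion at hepatocytes. Whether other liver cells kept the gene was not measured here. JNK1f/f alleles carry recombination sites and no deletion. No mutant was sham-operated, so a mutant difference was measured in ligated liver only. The labels number the 3 samples of a group and say no more about them. The p-values therefore rest on the spread between these samples, estimated for each gene over all 8 groups together.

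AP-1 proteins share a basic region that touches DNA and a leucine zipper that joins 2 proteins. Jun proteins pair with each other or with Fos proteins, Fos proteins need a Jun partner, and Atf3 pairs with itself or with Jun proteins. The classical AP-1 site reads TGANTCA, and related pairs bind the longer TGANNTCA or the cyclic AMP response element. Most of these genes are immediate early genes, switched on within minutes of a stimulus without new protein synthesis. JNK kinases phosphorylate Jun in its activating domain, and in rodent liver Jun is known for its part in hepatocyte survival and in regrowth after tissue loss. An array measures their messenger RNA and not their phosphorylation.

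The promoters of 4 members are shown because of the results below: Jun, Fos and Atf3 rose with ligation at both times, as did Jund, which is not shown, and Fosl2 was the member whose response differed between the times. Each sequence covers the 120 bases before the annotated gene start, from RefSeq on build GRCm38.p6, written 5′ to 3′ on the gene's strand, with motif matches in capitals.
Jun, chr4:95052223-95052342, minus strand: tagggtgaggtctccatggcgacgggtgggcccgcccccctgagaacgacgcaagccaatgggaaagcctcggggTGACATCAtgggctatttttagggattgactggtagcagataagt
Fos, chr12:85473770-85473889, plus strand: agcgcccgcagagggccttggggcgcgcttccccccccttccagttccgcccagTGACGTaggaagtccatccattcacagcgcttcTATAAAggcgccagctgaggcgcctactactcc
Fosl2, chr5:32136352-32136471, plus strand: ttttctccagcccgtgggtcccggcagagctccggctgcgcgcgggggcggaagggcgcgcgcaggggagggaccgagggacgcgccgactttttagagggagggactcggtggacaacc
Atf3, chr1:191183334-191183453, minus strand: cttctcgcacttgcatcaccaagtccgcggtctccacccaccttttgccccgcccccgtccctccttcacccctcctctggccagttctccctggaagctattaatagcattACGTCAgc

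All 7 measured members matched the promoter table by symbol, and 5 motifs were searched on both strands of the 250 bases before each start. The 8-base site TGANNTCA was found in the Jun promoter, as TGACATCA from position -45 to -38, and in the Jund promoter, as TGAAATCA from -61 to -54. It was present in 11.9% of the 32851 mouse promoters searched. The core of the cyclic AMP response element, TGACGT, lay from -66 to -61 in Fos and, read on the other strand, from -8 to -3 in Atf3, and 6.47% of all promoters held it. Fos also had TATAAA, the core of a TATA box, from -33 to -28, which 12.4% of promoters held. TGANTCA was found in 0 of the 7 windows and in 6.75% of all promoters, and the CArG box, the site of serum response factor, in 0 of 7 and in 1.47%. A sequence with CG in the middle of TGANNTCA would match both that pattern and TGACGT, but no window here held such an overlap. A match describes these letters, and its absence says only that the letters are not in this window.

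**Figure D1:**
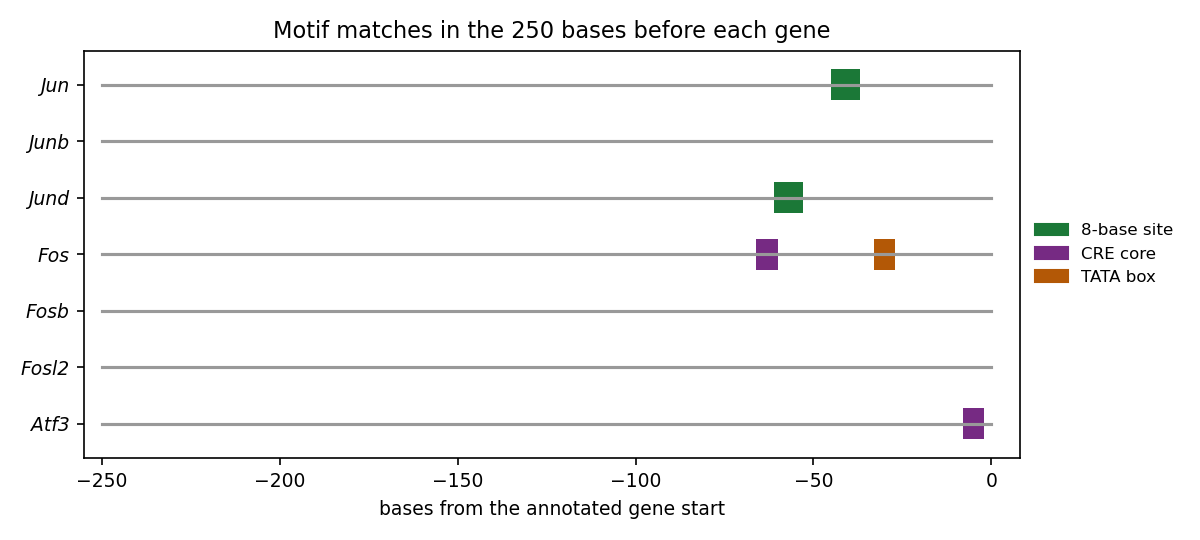
Positions of motif matches (coloured blocks) in the 250 bases before the annotated start of the 7 measured AP-1 genes, in bases from the start. Jun and Jund hold the 8-base site, Fos and Atf3 the core of the cyclic AMP response element and Fos a TATA box, while Junb, Fosb and Fosl2 show no match to the 5 motifs.

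The deposited values were log2 intensities, on which a difference of 1 is a doubling, and they allow no comparison of level between genes, which have different probes. Arrays correlated with each other at 0.961 to 0.997, and no pair was identical. The median gene SD within a group was 0.115 to 0.139, except in ligated control liver at 28 d, where it was 0.187. Mapk8 read 5.33, 6.17 and 6.09 in JNK1-/- livers at 48 h, against 7.47, 7.49 and 7.37 in ligated control livers, and at 28 d it read 6.11, 5.18 and 5.61 against 7.67, 7.41 and 7.44. Its log2 difference was -1.58 (SE 0.22, adjusted p = 0.00057) at 48 h and -1.87 (SE 0.22, adjusted p = 1.02e-04) at 28 d. In the JNK1Δhepa arrays it was -0.66 (adjusted p = 0.9995) and -0.33 (adjusted p = 0.513), and 1 array labelled JNK1Δhepa, replicate 1 at 28 d, read 7.67, like the control. The JNK1Δhepa arrays at 48 h read 6.77, 6.81 and 6.76, all below the ligated control arrays of that time. The arrays labelled control sham at 48 h read 6.93, 6.67 and 6.86, below the other control arrays, which read 7.37 to 7.67. Those sham arrays thus read at the level of JNK1Δhepa at 48 h, and they are the reference for ligation at 48 h. Why they read so was not tested. Where the Mapk8 probes lie relative to the deleted part is not given in the sources used here. Hepatocyte markers averaged between 12.7 and 12.9 in every group.

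Ligation raised the messenger RNA of most measured AP-1 genes in control liver at both times. At 48 h, Jun, Jund, Fos and Atf3 rose, which is 4 of 7 members beside 5.61% of all genes called higher and 3.83% called lower. At 28 d, 6 of 7 rose, all but Fosb, beside 11.7% of all genes called higher and 11.5% called lower. Calls are those with an adjusted p under 0.05 in limma. The median log2 difference of the members was 0.78 at 48 h and 1.18 at 28 d, beside -0.03 for all genes at either time. The largest differences among the members were those of Atf3, 11.5-fold at 48 h and 4.47-fold at 28 d. The samples are whole liver, in which more cells of a type and more messenger RNA per cell cannot be told apart.

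**Figure D2:**
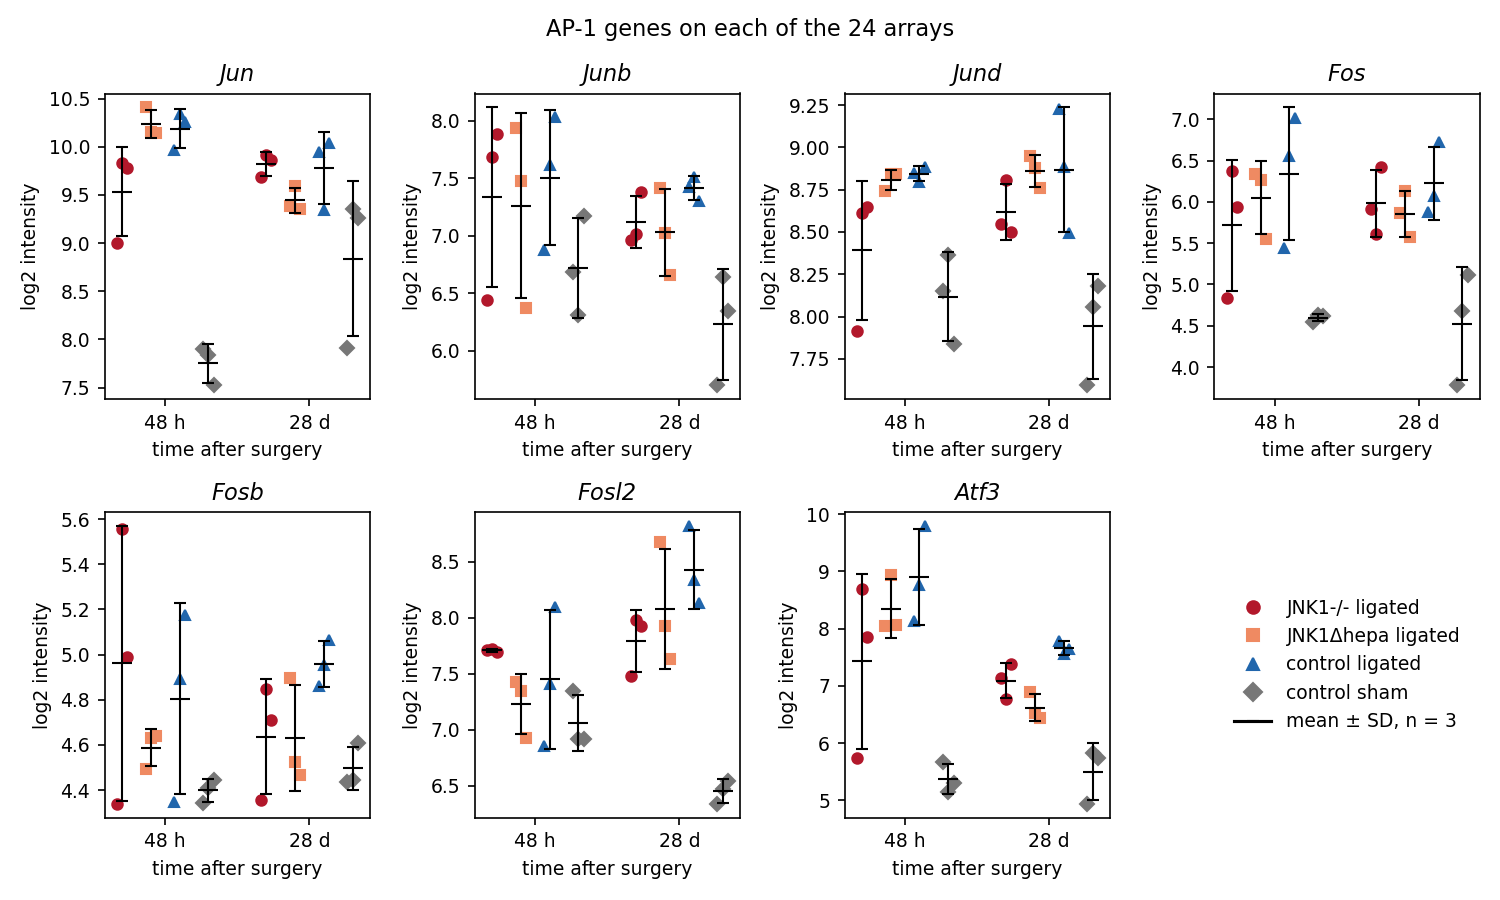
Log2 intensity (vertical axis) of the 7 measured AP-1 genes on each of the 24 arrays at 48 h and 28 d, with symbols for genotype and surgery and black bars for mean ± SD (n = 3). Each gene has its own vertical range, and for Atf3 all ligated arrays but 1 JNK1-/- array at 5.73 lie above all sham arrays, which read 4.94 to 5.83.

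Jun encodes a member that JNK phosphorylates. It read 9.96, 10.34 and 10.25 in ligated control livers at 48 h, against 7.90, 7.84 and 7.52 in sham livers. Each ligated array stood more than 2 log2 units above the highest sham array, and the difference was 2.43 (SE 0.28, 95% interval 1.84 to 3.03, adjusted p = 3.19e-05), or 5.40-fold. At 28 d the ligated livers read 9.95, 9.35 and 10.04, against 7.91, 9.35 and 9.26 in sham livers. Here the groups touched, because the highest sham array was level with the lowest ligated one, and a second sham array lay just below it. The difference was 0.94 (SE 0.28, adjusted p = 0.0206), and without sham replicate 1, the low array, it was 0.48 (adjusted p = 0.149). The call was also lost without ligated replicate 1 (0.86, adjusted p = 0.0642) or ligated replicate 3 (0.81, adjusted p = 0.0756).

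Junb encodes a Jun relative that in many settings restrains Jun. It read 6.87, 7.62 and 8.03 in ligated control livers at 48 h, against 6.68, 6.31 and 7.17 in sham livers, and the groups overlapped. The difference was 0.78 with a 95% interval of -0.04 to 1.61 (adjusted p = 0.240). By 28 d the ligated livers read 7.43, 7.51 and 7.30, against 5.70, 6.64 and 6.35 in sham livers. The groups were apart and the ligated arrays close together, with a difference of 1.18 (SE 0.39, adjusted p = 0.0347). That call was lost without any 1 of the 3 ligated arrays or without sham replicate 1 or 3, where the adjusted p lay between 0.0545 and 0.158.

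Jund encodes the Jun protein that most resting cells contain. Ligated control livers read 8.85, 8.80 and 8.88 at 48 h, against 8.15, 8.36 and 7.84 in sham livers. The groups were apart by a small step, 0.73 on the log2 scale (SE 0.19, adjusted p = 0.0213), which is 1.65-fold. Without any 1 ligated array, or without sham replicate 1 or 3, the adjusted p lay between 0.0534 and 0.116. At 28 d the values were 9.23, 8.89 and 8.49 in ligated livers, against 7.59, 8.06 and 8.18 in sham livers, again with no overlap. The difference of 0.93 (SE 0.19, adjusted p = 0.0016) stayed called without any single array.

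Fos, the immediate early partner of Jun, read 5.44, 6.56 and 7.01 in ligated control livers at 48 h, against 4.54, 4.63 and 4.62 in sham livers. The sham arrays agreed within 0.1 and the ligated arrays spread over more than 1.5 log2 units, all above them. The difference was 1.74 (SE 0.41, adjusted p = 0.00913), or 3.34-fold, and without ligated replicate 3 it was 1.41 (adjusted p = 0.0615). At 28 d the ligated livers read 5.88, 6.07 and 6.72, against 3.78, 4.68 and 5.11 in sham livers. With no overlap, Fos was higher by 1.70 (SE 0.41, adjusted p = 0.00451), and the call held without any single array. The difference at 28 d minus that at 48 h was -0.04 (95% interval -1.24 to 1.16).

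Fosb encodes a Fos relative that is also made as a shortened form without the end that activates transcription. Its readings on all 24 arrays ran from 4.34 to 5.56. Ligated control livers read 4.35, 4.89 and 5.18 at 48 h, against 4.34, 4.41 and 4.44 in sham livers, a difference of 0.40 (95% interval -0.06 to 0.87, adjusted p = 0.297). At 28 d they read 4.86, 4.95 and 5.06, against 4.44, 4.44 and 4.61 in sham livers. These groups were apart, but the difference of 0.46 (95% interval -0.00 to 0.93, adjusted p = 0.150) was not called.

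Fosl2 encodes Fra-2, a Fos relative that in growth-stimulated fibroblasts appears later than Fos. At 48 h the ligated control livers read 6.86, 7.41 and 8.09, against 7.35, 6.92 and 6.92 in sham livers. The groups overlapped, and the difference was 0.39 (SE 0.27, 95% interval -0.17 to 0.95, adjusted p = 0.421). At 28 d the ligated livers read 8.82, 8.34 and 8.13, against 6.34, 6.47 and 6.55 in sham livers. The lowest ligated array lay more than 1.5 log2 units above the highest sham array, and the difference was 1.98 (SE 0.27, adjusted p = 2.78e-05), or 3.93-fold. That call held without any single array.

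Atf3 encodes a stress-induced factor that often represses its targets. It read 8.13, 8.77 and 9.80 in ligated control livers at 48 h, against 5.66, 5.14 and 5.31 in sham livers. All ligated arrays stood more than 2 log2 units above all sham arrays, and the difference was 3.53 (SE 0.51, adjusted p = 2.51e-04). At 28 d the ligated livers read 7.79, 7.55 and 7.64, against 4.94, 5.83 and 5.74 in sham livers, with no overlap and a difference of 2.16 (SE 0.51, adjusted p = 0.00421). Both calls held without any single array.

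**Figure D3:**
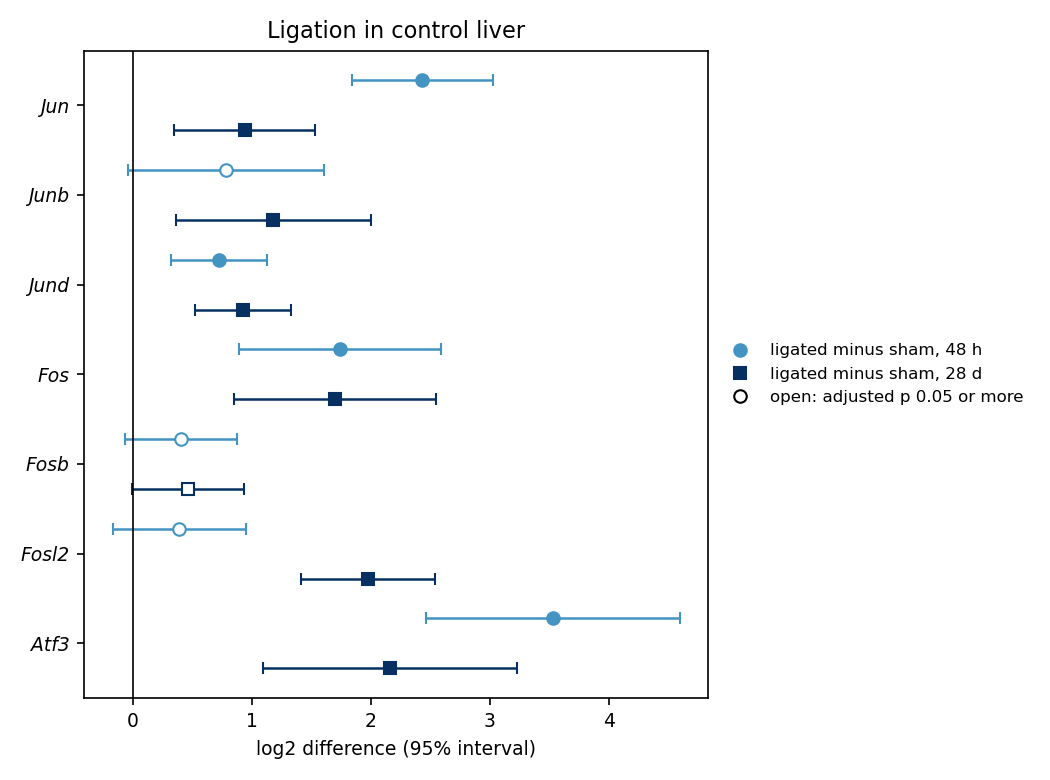
Log2 difference of ligated minus sham control liver (horizontal axis) for the 7 measured AP-1 genes at 48 h and 28 d, with 95% intervals and open symbols where the adjusted p was 0.05 or more. Atf3 and Jun lie farthest right at 48 h (3.53 and 2.43), and Fosl2 moves most between the times (1.98 at 28 d and 0.39 at 48 h).

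Whether the response to ligation differed between the times was tested with the interaction, the ligation difference at 28 d minus that at 48 h. Fosl2 was the single member called, at 1.58 (SE 0.38, adjusted p = 0.0434), beside 1.30% of all genes. The call lay close to the threshold: it was lost without any 1 of 9 of the 12 arrays in the comparison (lowest value 1.29, adjusted p = 0.119, without replicate 1 of the control livers ligated for 48 h), and with the replicate number as a block (adjusted p = 0.0557). The sham groups differed as well: Fosl2 averaged 6.45 ± 0.11 in sham liver at 28 d and 7.06 ± 0.25 at 48 h (SD, n = 3 each), with no overlap. Jun went the other way, at -1.49 (SE 0.40, adjusted p = 0.0752), and 3 of the other alternatives called it: array weights (-1.70, adjusted p = 0.00938), leaving out ligated replicate 3 at 28 d (-1.62, adjusted p = 0.0418) and leaving out sham replicate 1 at 28 d (-1.96, adjusted p = 0.0034). Atf3 had -1.37 (SE 0.72, adjusted p = 0.386). The remaining members, Junb, Jund, Fos and Fosb, had interactions between -0.04 and 0.40, none called.

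Within sham liver, 0 of 7 members differed between 28 d and 48 h in limma, and 0.133% of all genes were called. An unadjusted p under 0.05 was found for 1427 of all 18820 genes and for 2 members. Those 2 were Jun, at 1.08 (SE 0.28, adjusted p = 0.205), and Fosl2, at -0.61 (SE 0.27, adjusted p = 0.614), and in both the groups did not overlap. Sham replicate 1 at 28 d read 7.91 for Jun, near the 48 h sham arrays, and without it the Jun difference was 1.55 and called (adjusted p = 0.00748). The sham mean of Jun at 28 d is thus made of 2 high arrays and 1 low one.

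Among ligated livers, the members called between 28 d and 48 h were Fosl2 and Atf3, and the share of members called stood near that of all genes in control and JNK1Δhepa liver. In control liver Fosl2 averaged 8.43 ± 0.35 at 28 d and 7.45 ± 0.62 at 48 h (SD, n = 3 each), higher by 0.98 (SE 0.27, adjusted p = 0.0256), the 1 member called beside 10.4% of all genes. Without ligated replicate 1 at 28 d, or replicate 1 or 2 at 48 h, that call was lost (0.78, 0.68 and 0.95, adjusted p = 0.122, 0.145 and 0.0728). Atf3 in control liver averaged 7.66 ± 0.12 at 28 d and 8.90 ± 0.84 at 48 h, and its difference of -1.24 was not called (adjusted p = 0.131) although the groups did not overlap. In JNK1Δhepa liver Fosl2 rose by 0.84 (SE 0.27, adjusted p = 0.0342) and Atf3 fell by 1.73 (SE 0.51, adjusted p = 0.0233), which is 2 of 7 members beside 18.0% of all genes. JNK1Δhepa Atf3 averaged 6.62 ± 0.24 at 28 d and 8.35 ± 0.52 at 48 h, with all 28 d arrays below all 48 h arrays. JNK1Δhepa Jun read 9.38, 9.60 and 9.35 at 28 d and 10.41, 10.16 and 10.15 at 48 h, also without overlap, and its difference of -0.79 (SE 0.28, adjusted p = 0.0594) was not called. It was called when the dimmest 30% of genes were left out (adjusted p = 0.0465), with array weights (-0.75, adjusted p = 0.0306) and in a fit to only the groups compared (adjusted p = 0.00269). The Atf3 call was lost without replicate 2 or 3 at 28 d or replicate 2 at 48 h (adjusted p up to 0.108), and the Fosl2 call without any 1 of the 6 arrays but replicate 3 at 28 d (adjusted p up to 0.221). In JNK1-/- liver 0 of 7 members were called in limma, beside 2.84% of all genes. There 0 members had an unadjusted p under 0.05, beside 3182 of all 18820 genes. There Fosl2 read 7.48, 7.98 and 7.92 at 28 d and 7.72, 7.72 and 7.70 at 48 h.

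The groups of each gene were put in the order of their means, and only neighbours in that order were compared for overlap. A step without overlap therefore does not part all groups above it from all below. The lowest JNK1-/- array at 48 h read 9.00 for Jun, 4.84 for Fos and 5.73 for Atf3. The highest sham array at 28 d lay above it for each, at 9.35, 5.11 and 5.83. Ligated and sham control liver, which are not neighbours, were apart for Jund at both times and for Fosl2 at 28 d. Atf3 was highest in the livers ligated for 48 h, control (8.90) before JNK1Δhepa (8.35), and lowest in the sham groups, 5.50 at 28 d and 5.37 at 48 h. Neighbours in its order did not overlap at 2 steps: JNK1Δhepa at 48 h above control ligated at 28 d, and JNK1Δhepa at 28 d above sham at 28 d. Jun ran from 10.24 ± 0.15 in JNK1Δhepa liver at 48 h to 7.75 ± 0.20 in sham liver at 48 h, with steps free of overlap between control ligated at 48 h and JNK1-/- at 28 d, between JNK1Δhepa at 28 d and sham at 28 d, and between the sham groups. The step from JNK1Δhepa to sham at 28 d was thin, with 9.354 as the lowest JNK1Δhepa and 9.350 as the highest sham reading. For Fosl2 the 3 groups ligated for 28 d came first, at 8.43 in control, 8.08 in JNK1Δhepa and 7.79 in JNK1-/-, and the one step without overlap lay between the sham groups at the bottom. Fos separated at a single step too, JNK1-/- at 48 h (5.72 ± 0.79) above sham at 48 h (4.60 ± 0.05). For Junb, Jund and Fosb every neighbouring pair overlapped, although both sham groups had the lowest means for each of them.

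Loss of Jnk1 changed the level of no measured AP-1 gene enough to be called, in either mutant at either time. Where uncalled groups are said not to overlap, the share of all genes that do the same is not known. In JNK1-/- against control liver at 48 h, 0 of 7 members were called in limma, and 2.30% of all genes were called. An unadjusted p under 0.05 was found for 2892 of all 18820 genes and for 3 members. The 3 were Jun, Jund and Atf3, all lower in JNK1-/- liver. Jun read 9.00, 9.83 and 9.78 in JNK1-/- livers, against 9.96, 10.34 and 10.25 in control livers, with no overlap. Its difference was -0.65 with a 95% interval of -1.25 to -0.06 (adjusted p = 0.270). Jund read 7.92, 8.61 and 8.65 in JNK1-/- livers, against 8.85, 8.80 and 8.88 in control livers, also with no overlap, a difference of -0.45 (95% interval -0.86 to -0.05, adjusted p = 0.262). Atf3 read 5.73, 8.70 and 7.86 in JNK1-/- livers, against 8.13, 8.77 and 9.80 in control livers. These groups overlapped, and the difference was -1.47 (95% interval -2.53 to -0.40, adjusted p = 0.150). JNK1-/- replicate 1 had the lowest reading of its group for 6 of the 7 members, all but Fosl2. Without it the differences were -0.38 for Jun, -0.21 for Jund and -0.62 for Atf3 (adjusted p = 0.663, 0.717 and 0.556). Without JNK1-/- replicate 2 the Atf3 difference was -2.10 and called (adjusted p = 0.0347).

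The other members differed less at 48 h. Junb read 6.44, 7.68 and 7.88 in JNK1-/- livers, against 6.87, 7.62 and 8.03 in control livers, a difference of -0.17 (95% interval -0.99 to 0.65). Fos read 4.84, 6.37 and 5.93 in JNK1-/- livers, against 5.44, 6.56 and 7.01 in control livers, a difference of -0.62 (95% interval -1.47 to 0.23). Both sets of arrays overlapped broadly. Fosb and Fosl2 had positive differences, 0.16 (95% interval -0.31 to 0.62) and 0.26 (95% interval -0.30 to 0.82). For Fosl2 the 3 JNK1-/- arrays stood within 0.02 of each other, from 7.70 to 7.72, inside the control range of 6.86 to 8.09.

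At 28 d in JNK1-/- against control liver, 0 of 7 members were called in limma, and 0.627% of all genes were called. That share is 118 genes, and a fit to only these groups called 1. An unadjusted p under 0.05 was found for 2328 of all 18820 genes and for 1 member. The 1 was Fosl2, which read 7.48, 7.98 and 7.92 in JNK1-/- livers, against 8.82, 8.34 and 8.13 in control livers. All JNK1-/- arrays lay below all control arrays, with a difference of -0.64 (95% interval -1.20 to -0.07, adjusted p = 0.331). Atf3 read 7.13, 6.77 and 7.38 in JNK1-/- livers, against 7.79, 7.55 and 7.64 in control livers, again without overlap and again uncalled (-0.57, 95% interval -1.64 to 0.50). Jun was close to even, at 9.68, 9.92 and 9.86 in JNK1-/- livers, against 9.95, 9.35 and 10.04 in control livers, a difference of 0.04 (95% interval -0.55 to 0.63). Junb, Jund, Fos and Fosb had differences between -0.32 and -0.24, and among these only Fosb showed no overlap, at 4.36 to 4.85 in JNK1-/- livers and 4.86 to 5.06 in control livers. The change of the JNK1-/- difference between the times was called for 0 of 7 members in limma, beside 0.744% of all genes. An unadjusted p under 0.05 was found for 2798 of all 18820 genes and for 1 member. That 1 was Fosl2, at -0.89 (95% interval -1.69 to -0.10, adjusted p = 0.268).

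In JNK1Δhepa against control liver at 48 h, 0 of 7 members were called in limma, and 0% of all genes were called. An unadjusted p under 0.05 was found for 607 of all 18820 genes and for 0 members. Jun read 10.41, 10.16 and 10.15 in JNK1Δhepa livers, against 9.96, 10.34 and 10.25 in control livers, a difference of 0.05 (95% interval -0.54 to 0.64). The groups overlapped for all 7 members. The differences of the other 6 were negative, from -0.55 for Atf3 (95% interval -1.62 to 0.52) to -0.04 for Jund (95% interval -0.44 to 0.37). At 28 d, 0 of 7 members had an unadjusted p under 0.05, beside 2798 of all 18820 genes. In limma 0 of 7 members were called, beside 0.228% of all genes. That share of all genes was unsteady, since the number called was 43, 11 with the replicate number as a block and 1985 without ligated control replicate 1. All 7 differences were negative at 28 d, with a median of -0.35, beside 0.01 for all genes. The smallest was that of Jund, at -0.008, and centring of arrays moved the median of all genes by 0.14 here. The members share arrays and tend to deviate together, so the 7 signs are not separate results. Atf3 had the largest difference, at 6.89, 6.53 and 6.44 in JNK1Δhepa livers, against 7.79, 7.55 and 7.64 in control livers. Every JNK1Δhepa array lay below every control array, and the difference of -1.04 (95% interval -2.11 to 0.03) had an adjusted p of 0.352. That interval uses the spread of all groups. The SD of Atf3 was 0.24 in these JNK1Δhepa livers and 0.12 in these control livers, but 1.53 in JNK1-/- liver at 48 h. Without replicate 1 of JNK1Δhepa, the array with Mapk8 at the control level, the Atf3 difference was -1.18 (adjusted p = 0.434). The change of the JNK1Δhepa difference between the times was called for 0 of 7 members in limma, and 0% of all genes were called. An unadjusted p under 0.05 was found for 1338 of all 18820 genes and for 0 members.

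**Figure D4:**
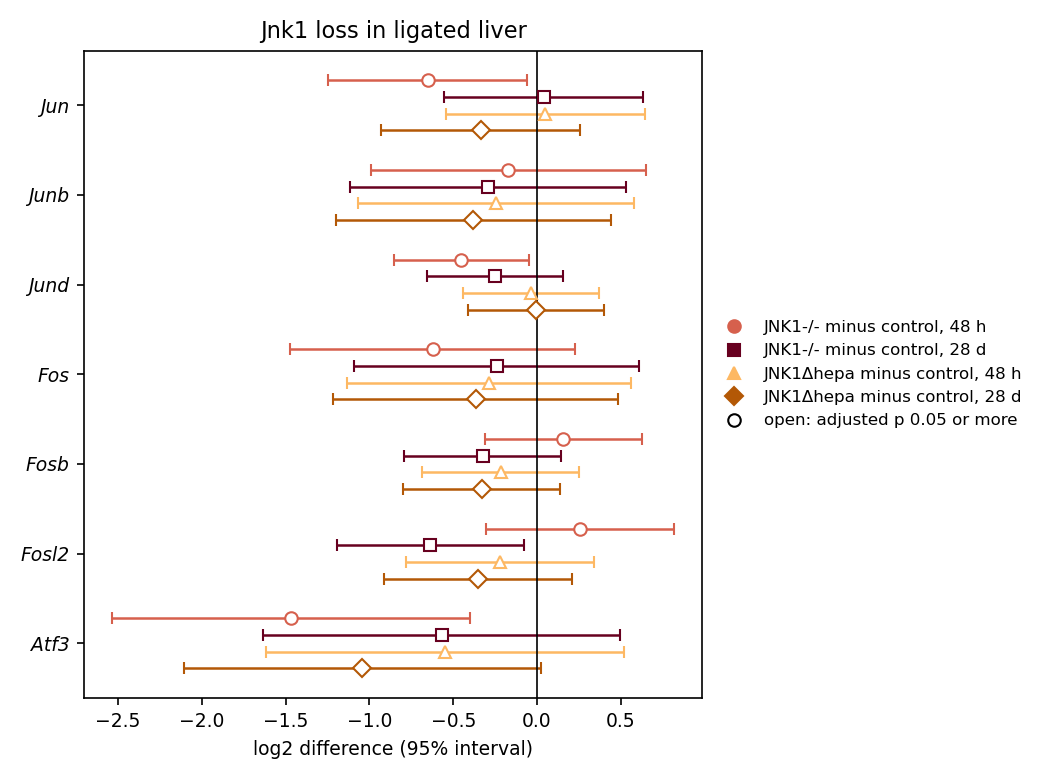
Log2 difference of each mutant minus control, both ligated (horizontal axis), for the 7 measured AP-1 genes at 48 h and 28 d with 95% intervals. All symbols are open, the mark for an adjusted p of 0.05 or more, and the leftmost is Atf3 in JNK1-/- liver at 48 h (-1.47, interval -2.53 to -0.40).

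The mutants were also set against each other. In JNK1-/- against JNK1Δhepa liver at 48 h, 0 of 7 members were called in limma, and 2.44% of all genes were called. An unadjusted p under 0.05 was found for 2967 of all 18820 genes and for 2 members. The 2 members were Jun, at -0.70 (95% interval -1.29 to -0.11, adjusted p = 0.221), and Jund, at -0.41 (95% interval -0.82 to -0.01, adjusted p = 0.302). For both, the JNK1-/- arrays lay below the JNK1Δhepa arrays without overlap, 9.00 to 9.83 against 10.15 to 10.41 for Jun and 7.92 to 8.65 against 8.74 to 8.84 for Jund. Fosl2 lay the other way without overlap, at 7.70 to 7.72 in JNK1-/- livers and 6.93 to 7.42 in JNK1Δhepa livers, a difference of 0.48 (95% interval -0.08 to 1.04, adjusted p = 0.417). At 28 d, 0 of 7 were called in limma, beside 0.962% of all genes, and the differences ran from -0.28 for Fosl2 to 0.47 for Atf3. An unadjusted p under 0.05 was found for 3220 of all 18820 genes and for 0 members. The mutants share their control arrays, so their differences from control are not independent of each other.

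Within groups, the AP-1 genes tended to deviate in the same direction on an array, some pairs weakly. After each group's mean was taken off, the 21 pairs of members all correlated above 0 over the 24 arrays, from 0.24 for Jun and Fosl2 to 0.80 for Fosb and Atf3. Fos with Atf3 reached 0.78 and Junb with Fos 0.76, while Jund with Fos was at 0.28. Such correlations were not computed for pairs of other genes, so these have no background to be set beside. In control liver ligated for 48 h, replicate 3 was highest for 6 members and replicate 1 lowest for 6. Sham replicate 1 at 28 d and JNK1Δhepa replicate 3 at 28 d were the lowest of their groups for all 7. The arrays were also read for 23 other immediate early genes, a list that includes Egr1, Ier2, Klf6, Myc and Nr4a1: the mean deviation of the members and that of the list correlated at 0.88 over 24 arrays, which share hybridisation, normalization and liver sample. In control replicate 1 ligated for 48 h the members lay 0.51 below their group means and 22 of the 23 other genes lay below theirs. In JNK1-/- replicate 1 at 48 h the members lay 0.73 below and 19 of 23 lay below. In sham replicate 1 at 28 d, by contrast, the members lay 0.47 below while the list lay 0.11 below, with 14 of 23 below. Sham replicate 3 at 28 d had 0.26 for the members and -0.05 for the list. What sets these arrays apart was not tested.

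**Figure D5:**
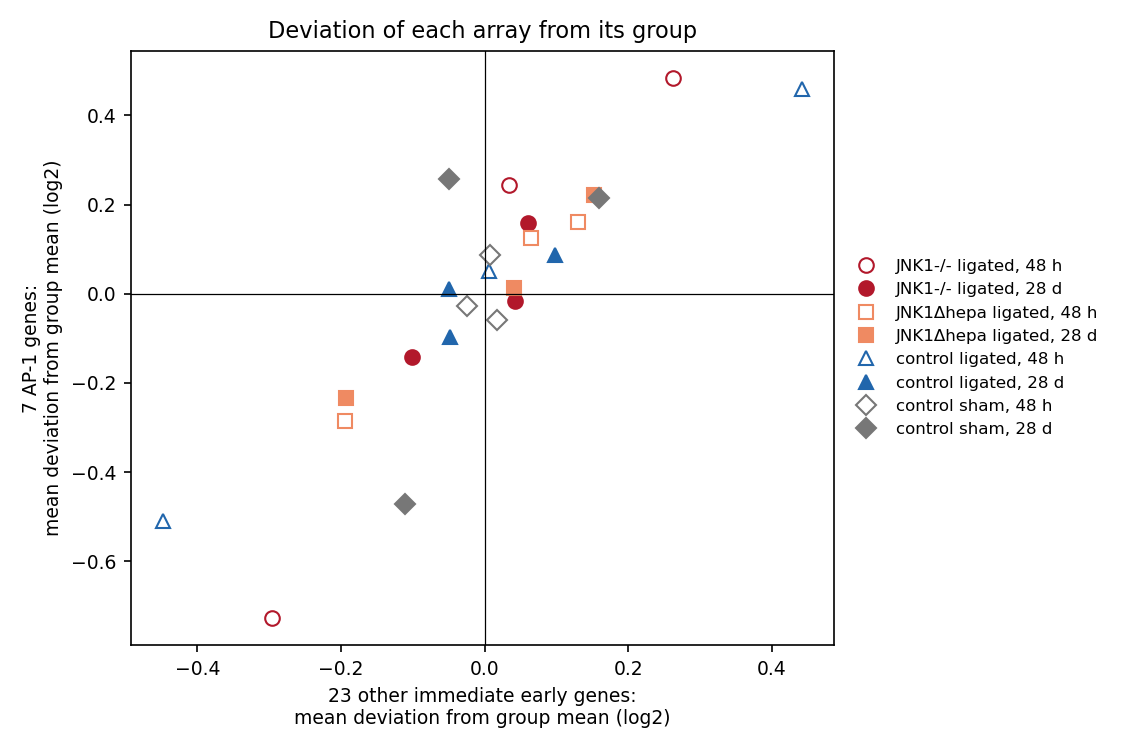
Mean deviation of the 7 AP-1 genes from their group means (vertical axis, log2) against that of 23 other immediate early genes (horizontal axis, log2), 1 symbol per array. The arrays run from lower left to upper right (r = 0.88 over 24 arrays), with JNK1-/- replicate 1 at 48 h lowest (-0.73) and control ligated replicate 1 at 48 h farthest left (-0.45).

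The genes whose level followed a member most closely were found over all 24 arrays, a measure that holds both the group differences and the deviations within groups. For Jun these were Bahd1 (r = 0.880), Map3k1 (0.879), a kinase upstream of JNK, and Mtmr11 (0.870). Junb was followed by Socs3 (0.884), an inhibitor of cytokine signalling, Sbno2 (0.881) and the immediate early gene Ier2 (0.859). For Jund they were Dusp8 (0.917), a phosphatase that acts on JNK and p38 kinases, Ccdc120 (0.898) and Cep170b (0.892). Fos was followed by Bcl10 (0.915), Hbegf (0.905), a growth factor of the epidermal growth factor family, and Myl12a (0.889). For Fosb they were Maff (0.855), a small Maf protein, Dusp4 (0.810) and Smox (0.790). Fosl2 was followed by Irak3 (0.928), a brake on Toll-like receptor signalling, Cd300lf (0.916), a receptor of myeloid cells, and Cblb (0.910). Atf3 had the closest of all, Ets2 (0.949), then Map3k1 (0.928) and Otud1 (0.926).

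Other bZIP factors, the wider protein class to which AP-1 belongs and which holds further partners, were read beside the members. Of 14 measured on a list of 16, 2 rose with ligation at 48 h, beside 5.61% of all genes. At that time 0 fell, and the median was 0.13. The 2 that rose were Mafk, at 0.76 (SE 0.16, adjusted p = 0.00392), and Nfe2l2, the regulator of antioxidant genes, at 0.88 (SE 0.22, adjusted p = 0.0158). At 28 d, 4 of 14 rose, beside 11.7% of all genes, and 0 fell, with a median of 0.31. The 4 were Mafk at 1.17, Maff at 1.36, Jdp2, a partner of Jun, at 0.75, and Creb5 at 0.63. The Nfe2l2 call was lost without ligated replicate 3 or sham replicate 2 or 3 at 48 h (adjusted p up to 0.0723), which left 1 of 14 called. The Maff call was lost without any 1 array but ligated replicate 2 (adjusted p up to 0.116). In the mutants 0 of 14 were called by limma at either time, and Nfe2l2 in JNK1-/- liver at 48 h had -0.68 (adjusted p = 0.128).

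Of the 23 other immediate early genes, 9 rose and 1 fell with ligation at 48 h, with a median of 0.80. Over all genes, 5.61% were called higher and 3.83% lower. Klf6 rose by 2.02 (SE 0.34), Gadd45b by 2.42 (SE 0.45), Myc by 2.06 (SE 0.37) and Ier5 by 1.24 (SE 0.22). The gene that fell was Klf10, named after its value was seen, at -1.66. The count of risers was 6 without ligated replicate 2 or 3, 7 without any 1 sham array and 13 without ligated replicate 1, while the calls of Klf6, Gadd45b, Myc and Ier5 held in each case. At 28 d, 9 rose, beside 11.7% of all genes, and 0 fell, with a median of 0.49. The 4 with the smallest p were Klf6 at 2.54, Gadd45b at 2.88, Btg2 at 2.31 and Rhob at 1.11. In JNK1-/- liver at 48 h, where 2.30% of all genes were called, 1 of 23 fell, Ier5, at -0.87 (SE 0.22, adjusted p = 0.0368), and 0 rose. That call was lost without any 1 ligated control array or without JNK1-/- replicate 1 (adjusted p up to 0.179). The other mutant comparisons called 0 of 23 in limma, with medians between -0.23 and -0.13.

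Of 21 measured genes known as AP-1 targets, on a list of 24, 10 rose with ligation at 48 h and 11 at 28 d, and 0 fell. Over all genes, 5.61% and 11.7% were called higher at these times. The medians of the targets were 0.98 and 1.01. Lgals3, which encodes galectin-3, rose by 1.49 (SE 0.14, adjusted p = 5.64e-06) at 48 h and by 1.997 (SE 0.14, adjusted p = 1.54e-08) at 28 d. The chemokine gene Ccl2 rose by 3.57 at 48 h, Hbegf by 1.78 at 48 h and 1.71 at 28 d, Timp1, an inhibitor of matrix proteases, by 2.91 at 48 h and 3.15 at 28 d, and Plaur, the urokinase receptor, by 1.88 at 28 d. In the mutants 0 of 21 were called in limma at either time. The medians were negative throughout, -0.16 and -0.21 in JNK1-/- liver at 48 h and 28 d, and -0.34 and -0.39 in JNK1Δhepa liver. Nearest to a call there was Plau, the urokinase gene, in JNK1Δhepa liver at 28 d, at -0.97 (SE 0.21, adjusted p = 0.0594).

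Among the kinases of the JNK pathway, 15 measured of 16 listed (Map2k7 not measured), Map3k1 rose with ligation by 1.44 (SE 0.15, adjusted p = 8.77e-06) at 48 h and by 0.84 at 28 d, and Map3k12 by 0.36 and 0.48. The Map3k12 call at 48 h was lost without any 1 array but ligated replicate 2 (adjusted p up to 0.219). Map3k1 and Map3k12 were the 2 of 15 that rose at either time, and the one that fell was Map3k4 at 28 d, at -0.44. Over all genes, 5.61% were called higher at 48 h and 11.7% at 28 d, and 11.5% were called lower at 28 d. The call of Map3k4 was lost without ligated replicate 1 or sham replicate 1 or 3 (adjusted p up to 0.101), and without sham replicate 2 there were 2 kinases called lower. In JNK1-/- liver at 48 h Map3k1 was lower by 0.60 on the log2 scale than in control liver (log2 difference -0.60, SE 0.15, adjusted p = 0.0337), and Mapk8 itself was the other kinase called. Without any 1 ligated control array, or without JNK1-/- replicate 1, Map3k1 was not called (adjusted p up to 0.169). At 28 d in JNK1-/- liver only Mapk8 was called, and in JNK1Δhepa liver Map3k12 fell at 28 d (-0.54, adjusted p = 0.0496). This call was lost without ligated control replicate 3 or any JNK1Δhepa array (adjusted p up to 0.212), and at 48 h 0 of 15 were called in limma.

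Some macrophage, neutrophil and bile duct cell markers rose with ligation at both times. Some stellate cell and mesothelial markers rose at 28 d, and no B or T cell, endothelial or hepatocyte marker was called higher. Of 12 macrophage markers 3 rose at 48 h and 7 at 28 d, with medians of 0.10 and 1.09, and their mean level lay at 8.83 to 8.92 in ligated against 8.21 to 8.26 in sham control livers at 48 h, and at 8.65 to 9.27 against 7.72 to 8.06 at 28 d. The 3 at 48 h were Cd14 at 2.91, Ccr2 at 2.02 and Cd68 at 0.79. The other 9 were not called, so the mean level at 48 h does not stand for the list as a whole. Of 9 neutrophil markers 5 rose at each time, with mean levels of 4.90 to 6.22 in ligated against 4.60 to 4.79 in sham livers at 48 h, and 5.04 to 5.52 against 4.16 to 4.36 at 28 d. Of 7 bile duct cell markers 2 rose at 48 h and 1 at 28 d, of 10 stellate cell and myofibroblast markers 0 and 2, and of 5 mesothelial markers 0 and 4. Of 8 endothelial markers 3 fell at 28 d, of 6 B and T cell markers 1 fell at 48 h and 2 at 28 d, and of 9 hepatocyte markers 1 and 2 fell. Over all genes, 5.61% were called higher and 3.83% lower at 48 h, and 11.7% higher and 11.5% lower at 28 d. Leaving out single arrays moved some of the marker counts. At 48 h 2 neutrophil markers were called without ligated replicate 3 or sham replicate 1 and 3 without sham replicate 2 or 3, and 0 to 1 bile duct cell markers without any 1 array. For 28 d, the stellate cell count was 5 without ligated replicate 1 and 1 without ligated replicate 3, and the bile duct cell count was 4, 2 and 0 without ligated replicate 1, 2 and 3, 0 without sham replicate 1 and 2 without sham replicate 3. In the mutants the single marker called was the hepatocyte gene Pck1, higher by 0.68 in JNK1-/- liver at 48 h. In JNK1Δhepa liver at 28 d the medians were -1.10 for stellate cell, -1.10 for mesothelial, -0.92 for bile duct cell and -0.49 for macrophage markers. The other medians there ran from -0.35 for neutrophil to 0.06 for hepatocyte markers. At 48 h they ran from -0.71 for neutrophil to 0.14 for stellate cell markers. In JNK1-/- liver they ran from -0.41 to 0.14 at 48 h and from -0.63 to 0.34 at 28 d. The part of any cell type in the AP-1 values was not tested.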

How the data were processed

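Each of the 24 arrays held RNA of 1 liver sample, and the labels put them in 8 groups of 3. The values the authors deposited are log2 intensities per probe set, made with RMA per the submitters' processing notes. For RMA's version and settings and the genome build, the sources used here give nothing. The file held 35556 probe sets. Of these, 21218 were annotated to a single symbol and kept, whereas 1881 with more than 1 symbol and 12457 without any were left out, and where a symbol had more than 1 probe set the brightest by mean was used, which left 18820 symbols. By gene number, 21185 probe sets had an entry in the RefSeq gene table and 33 had none.

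A linear model with a mean per group was fitted to all arrays with limma (version 3.58.1, in R 4.3.3, after reading files with data.table, version 1.17.8). It had 16 residual degrees of freedom, and the moderation of variances added a prior of 3.55. In each of 15 comparisons Benjamini-Hochberg adjustment ran over all genes, and calls were made where the adjusted p was under 0.05. Precision is limited by the number of arrays: the median SE was 0.129 for a difference and 0.183 for an interaction. The members, the gene lists and the rule for named genes were chosen with earlier results of these data known. The rule named the 8 members everywhere, the 4 genes of each list with the smallest p in a comparison, and the 3 genes with the highest correlation to each member. A list is described by its counts and median, beside the median of all genes (-0.03 for ligation at either time, between -0.01 and 0.01 for each mutant against control). For the list counts in the mutants, 2.30% and 0.627% of all genes were called in JNK1-/- liver at 48 h and 28 d. In JNK1Δhepa liver those shares were 0% and 0.228%. Promoters came from a RefSeq table on GRCm38.p6. The linear model was first tested on simulated data for differences between groups. The interactions, the alternatives and the list counts were not tested in that way.

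To see whether replicate numbers pair the arrays, the deviations of same-numbered arrays from their group means were correlated. All correlations passed 0.1 in 1 comparison, JNK1Δhepa against control at 28 d (0.50, 0.24 and 0.16), and the labels do not say what a number marks. Alternatives were quantile normalization, centring of arrays, leaving out the dimmest 30% of genes, array weights, an intensity trend with a robust prior, the mean of a gene's probe sets, a replicate block, a fit to only the groups compared, sham arrays of 28 d in place of those of 48 h, and leaving out each array.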

Additional observations from a re-analysis of the deposited data

Results flagged for a closer look

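The response of Fosl2 to ligation differed between the times, tested by the interaction term: ligation raised it by 1.98 (SE 0.27, adjusted p = 2.78e-05) at 28 d and the difference at 48 h was 0.39 (SE 0.27, adjusted p = 0.421), so that the first exceeded the second by 1.58 (SE 0.38, adjusted p = 0.0434). All 3 ligated arrays lay above all 3 sham arrays at 28 d, and at 48 h the groups overlapped. Over the alternatives the interaction lay between 1.29 and 1.91, with an adjusted p between 0.00503 and 0.119. It was no longer called in 12 of 20 of them.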

How the results depend on the processing

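No member changed direction while called. Ligation calls for Atf3 and Jun at 48 h held under all 15 alternatives (3.08 to 3.91 and 1.35 to 2.55, the lower Jun value with the sham arrays of 28 d), and those for Atf3, Fos and Fosl2 at 28 d under all 14. With the sham arrays of 28 d, Fosl2 (0.999, adjusted p = 0.0189) and Junb (1.28, adjusted p = 0.0392) were called at 48 h too, 6 members in all. Of all genes, 2245 were then called, in place of 1775. Jund at 48 h (adjusted p up to 0.116) was also lost with centred arrays, Junb at 28 d with quantile normalization (adjusted p = 0.0533) and centred arrays (0.0547), and Jun (0.202) and Jund (0.0522) at 28 d in a fit to only the groups compared, where Fosb was called (0.0435). Centring moved the median of all genes by -0.17 for ligation at 48 h, -0.20 at 28 d and 0.14 for JNK1Δhepa at 28 d.

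For the interaction of ligation and time, 1 member was called, but 0 with centred arrays, 0 with the replicate block, 0 in a fit to only the groups compared and 2 with array weights. Of all genes, 244 were called in the main fit, and 308, 258, 126 and 1051 under these alternatives in the same order. For JNK1-/- against JNK1Δhepa at 48 h, array weights called 1746 of all genes in place of 460. Array weights also called 1 member, Fosb (0.76, adjusted p = 0.0115), for JNK1-/- against JNK1Δhepa at 48 h, 2 for 28 d against 48 h in ligated control liver, where a fit to only those groups called 0, and 2, Atf3 (-1.29) and Fosb (-0.70), in JNK1-/- liver. The replicate block changed no other count of members beyond 1.5 times. Of all genes, it called 11 in place of 43 in JNK1Δhepa against control at 28 d, the comparison whose numbers paired, and 289 in place of 181 in JNK1-/- against JNK1Δhepa at 28 d. A fit to only the groups compared called 121 of all genes in place of 433 for JNK1-/- against control at 48 h. For ligation it called 2580 in place of 1775 at 48 h and 1765 in place of 4360 at 28 d. The shares of all genes set beside the members thus depend on the fit.

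Leaving out each array in turn gave 2 to 4 members for ligation at 48 h, 4 to 6 at 28 d, 0 to 2 for the interaction, 0 to 1 for sham, for JNK1-/- at 48 h, for ligated control liver and for JNK1Δhepa liver between the times, and 0 in the other comparisons. Of all genes, those fits called 1104 to 1445 for ligation at 48 h, 3354 to 4339 at 28 d and 112 to 612 for the interaction. With all arrays the numbers were 1775, 4360 and 244. The ranges were 4 to 21 genes for sham and 161 to 413 for JNK1-/- at 48 h. Between the times they were 961 to 2667 in ligated control and 1919 to 2760 in JNK1Δhepa liver. Of the recomputed counts, 200 stayed within 1.5 times and 29 did not. The 200 include counts of 0 that stayed 0, and most comparisons called 0 members. The tally therefore does not measure how stable the calls are. With 3 arrays per group, the median SE of a difference was 0.129 over all genes, and that number of arrays limits the precision.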
